A study of Mus musculus with 6 samples.

Results

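The 10 genes described here mark the cell's responses to unfolded protein in the endoplasmic reticulum (ER) and to shortage of amino acids. They were taken by gene name from 23284 genes in the count files and split by known role. The ATF4 branch holds Atf4, Ddit3, Trib3, Asns and Chac1, and the ER branch of chaperone and degradation genes holds Hspa5, Herpud1, Dnajb9, Xbp1 and Pdia4. RNA came from intestine (jejunum and ileum together) of male mice aged 8 weeks, either wild-type (WT) or lacking SHP (SHP-KO), with 3 libraries of each. SHP, encoded by Nr0b2, is a nuclear receptor without a DNA-binding domain that represses transcription through its partners. Both genotypes went without food overnight and were then refed for 6 h. The labels give neither how the SHP allele was made nor the share of jejunum and ileum in a sample, and they do not say whether libraries came from separate animals.

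When unfolded protein builds up in the ER, the membrane sensors IRE1, PERK and ATF6 are activated. IRE1 splices the Xbp1 mRNA and ATF6 is cut to release a transcription factor, and both products switch on chaperones and the machinery that removes misfolded protein. PERK instead phosphorylates the translation factor eIF2-alpha, as does GCN2 when amino acids run short, and this lowers translation in general but raises that of ATF4. ATF4 then induces amino acid synthesis and transport genes together with Ddit3 and Trib3. The secretory cells of the gut, goblet, Paneth and plasma cells, carry a large ER and high levels of its chaperones. Gene-level counts show neither Xbp1 splicing nor ATF4 translation, so only the amount of each transcript was compared.

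Promoter sequence is shown first because the members differ in their exact matches to response elements near the start. These elements are where the ATF6, XBP1 and ATF4 proteins are known to bind. Windows from 250 bases before to 50 after the annotated start were taken from RefSeq (GRCm38.p6), and all 10 members had one. Each window was searched on both strands for 4 exact motifs: the ER stress element ERSE (CCAAT and CCACG with 9 bases of any kind between them), ERSE-II (ATTGG and CCACG with 1 base between them), the UPR element UPRE (TGACGTGG) and the C/EBP-ATF response element CARE (TGATGNAA). ERSE, ERSE-II and UPRE share the letters CCACG on one of their strands, so that overlapping matches are possible. Of the 32851 windows in the table, 0.119% held ERSE, 0.0365% held ERSE-II, 0.676% held UPRE and 3.97% held CARE. The stretches below lie before the start and are printed 5′ to 3′ on the strand of the gene, with the matches in capitals, and positions are counted from the start, the base before it being -1.
Hspa5: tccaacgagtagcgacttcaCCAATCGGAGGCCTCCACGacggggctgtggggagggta
Herpud1: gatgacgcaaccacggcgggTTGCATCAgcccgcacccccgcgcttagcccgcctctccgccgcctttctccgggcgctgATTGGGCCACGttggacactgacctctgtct
Asns: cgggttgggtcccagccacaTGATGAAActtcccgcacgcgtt
Chac1: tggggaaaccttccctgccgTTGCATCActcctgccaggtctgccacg

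The Hspa5 stretch (chr2:34772005-34772063, plus strand, GRCm38.p6) holds an ERSE at -65 to -47 from the start. That of Herpud1 (chr8:94386297-94386407, plus strand) holds both kinds of element, an ERSE-II at -52 to -42 and a CARE on the opposite strand at -112 to -105. The Asns stretch (chr6:7693210-7693252, minus strand) has a CARE at -23 to -16, and that of Chac1 (chr2:119351029-119351076, plus strand) has one on the opposite strand at -193 to -186. Trib3 has a CARE on the opposite strand after its start, at 15 to 22. The windows of Atf4, Ddit3, Dnajb9, Xbp1 and Pdia4 held no exact match. Elements with other letters or outside the window cannot be seen by this search, so it does not show that these genes lack them.

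Total counts were between 7956528 and 13511800 per library, and Nr0b2 fell from 68 counts in the WT libraries together to 1 in SHP-KO. Of 12106 genes tested with edgeR's quasi-likelihood test, 70.6% passed an adjusted p of 0.05, 35.2% higher and 35.4% lower in SHP-KO. The middle 50% of log2 fold changes lay between -0.42 and 0.44. Libraries of a group were very close, with a common coefficient of variation (CV) beyond counting noise of 0.0297. If the libraries are not from separate animals, p-values measure only technical spread, so each call below was also made with edgeR's exact test at a larger, assumed CV of 0.2 (written as CV 0.2 from here on). The epithelial marker Vil1 was at 4467 ± 37.7 CPM (counts scaled to a common library size) in WT and 4918 ± 31.6 in SHP-KO (SD, n = 3). Of the 10 enterocyte genes listed, Vil1 among them, 5 rose and 5 fell, with log2 fold changes from -1.565 to 1.932. Markers of other cell types moved strongly: 11 of 11 smooth muscle genes rose, from a summed 261 to 273 CPM up to 1225 to 1268. All 10 B cell genes fell, from a summed 90.3 to 98.1 CPM down to 1.49 to 2.55, with Cr2, Faim3 and Fcer2a at 0 counts in SHP-KO. In bulk tissue, fewer cells of a type and less RNA per cell cannot be told apart.

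Ddit3 rose and Herpud1 fell, each by more than 2-fold, and the other members moved by less than 1.4-fold or were not called. Of the 9 members tested, 6 rose and 1 fell, 7 in all, against 70.6% of all tested genes called in either direction. In the ATF4 branch 3 of 4 tested members rose and none fell, with a median log2 fold change of 0.39. In the ER branch 3 of 5 rose and 1 fell, with a median of 0.17. The median over all tested genes was -0.01. At CV 0.2, 1 member of the ATF4 branch (Ddit3) and 1 of the ER branch (Herpud1) passed, against 33.4% of all tested genes.

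**Figure D1:**
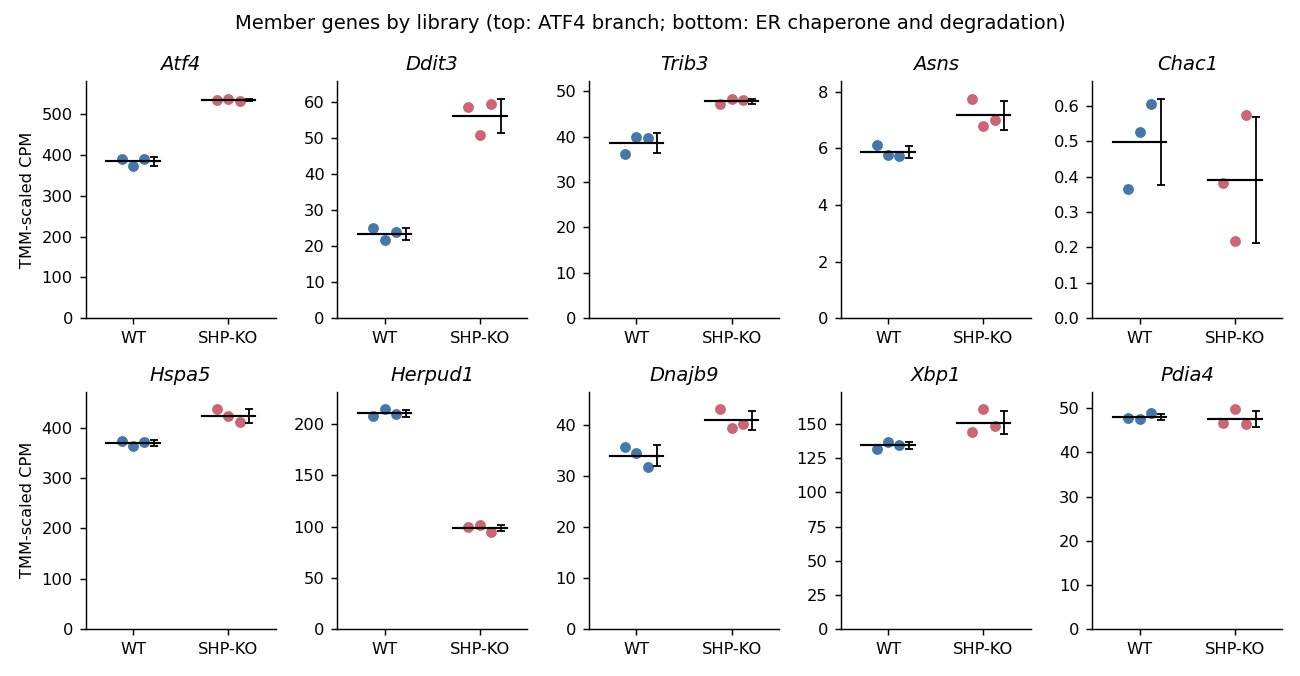
TMM-scaled CPM (y axes from 0) of the 10 members in each of 3 WT (blue) and 3 SHP-KO (red) libraries. Horizontal bars are means and error bars SD. Ddit3 and Herpud1 separate the genotypes by more than 2-fold, Pdia4 and Chac1 overlap, and the others lie close together on either side.

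Atf4 encodes the transcription factor at the centre of the amino acid and integrated stress response. It lies on chromosome 15 from 80085614 to 80087971 (mm9, plus strand). Its level was 389.7, 372 and 392 CPM in WT replicates 1 to 3 and 534, 539 and 533 CPM in SHP-KO replicates 1 to 3. All SHP-KO libraries were thus above all WT libraries, and the log2 fold change was estimated at 0.48 ± 0.029 (SE), with adjusted p 2.7e-27, a 1.39-fold rise. At CV 0.2 the call was lost (exact test, adjusted p 0.11). Atf4 had the highest level per exon length of the 10 genes in both groups, at 223 ± 6.16 RPKM (CPM per kilobase of exon) in WT and 310.3 ± 1.76 in SHP-KO.

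Ddit3 encodes CHOP, a C/EBP family factor that ATF4 induces and that promotes cell death under lasting ER stress. It lies on chromosome 10 from 126727849 to 126733344 (mm9, plus strand). WT libraries held 24.9, 21.7 and 23.8 CPM and SHP-KO libraries 58.4, 50.6 and 59.2 CPM. The groups were far apart relative to their spread, with a log2 fold change estimated at 1.25 ± 0.071 (SE), with adjusted p 1.1e-28, or 2.38-fold. That change was larger than 91% of those of all tested genes, and it passed in every alternative run, at log2 1.19 to 1.32. The last 68 of 871 exon bases overlap an exon of Mars, the methionyl-tRNA synthetase gene on the other strand, and the counting was unstranded. Mars itself was at 11.4 ± 0.73 CPM (WT) against 7.33 ± 1.18 CPM (SHP-KO), the opposite direction.

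Trib3, a pseudokinase that CHOP and ATF4 induce and that holds their activity back, lies on chromosome 2 from 152163161 to 152169796 (mm9, minus strand). It was at 36.2, 39.98 and 39.8 CPM in the WT libraries and 47.2, 48.2 and 48.1 CPM in those of SHP-KO. The groups did not overlap, and the log2 fold change was estimated at 0.31 ± 0.066 (SE), with adjusted p 2.0e-05. At CV 0.2 it did not pass (exact test, adjusted p 0.36).

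Asns, asparagine synthetase, is a classical target of ATF4 when amino acids are short. It spans 7625171 to 7643182 on chromosome 6 (mm9, minus strand) and was low in this tissue. WT libraries held 84, 66 and 76 counts, or 6.14, 5.79 and 5.74 CPM, and SHP-KO libraries held 61, 62 and 61 counts, or 7.76, 6.78 and 6.99 CPM. Although all SHP-KO values lay above all WT values, the difference did not pass, at log2 0.28 with a 95% interval of -0.02 to 0.58 (adjusted p 0.097). Non-overlap of this kind occurred in 72% of all tested genes, 35.9% with SHP-KO higher and 36.1% with SHP-KO lower.

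Chac1, which degrades glutathione and is among the genes most strongly induced by ATF4 in stressed cells, was close to the limit of detection. On chromosome 2 from 119176978 to 119180062 (mm9, plus strand) it collected 5, 6 and 8 counts in the WT libraries and 3, 2 and 5 in those of SHP-KO. It did not pass the filter on low counts and was not tested. The summed counts of 19 and 10 gave a SHP-KO to WT ratio of 0.78, with a 95% interval of 0.33 to 1.77 that covers counting error only. A rise of Chac1 as large as that of Ddit3 lies outside this counting interval.

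Hspa5 encodes BiP, the main Hsp70 chaperone of the ER, which also holds the stress sensors inactive. It lies on chromosome 2 from 34627610 to 34632049 (mm9, plus strand). Its level was 374, 363 and 371 CPM in the WT libraries and 436, 422 and 410.1 CPM in those of SHP-KO, without overlap. The log2 fold change was estimated at 0.20 ± 0.030 (SE), with adjusted p 1.1e-08, a 1.15-fold rise that CV 0.2 did not keep (exact test, adjusted p 0.58).

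Herpud1 encodes a ubiquitin-like ER membrane protein that assembles the degradation complex around the ubiquitin ligase HRD1. It lies on chromosome 8 from 96910400 to 96919258 (mm9, plus strand). WT libraries held 208, 215 and 210.04 CPM, and SHP-KO libraries 99.3, 101.2 and 94.99 CPM. Every SHP-KO library was below 0.5 times the lowest WT library, and the log2 fold change was estimated at -1.10 ± 0.039 (SE), with adjusted p 5.4e-43, 2.14-fold lower. Only 6.98% of all tested genes had a lower log2 fold change. The fall passed in every alternative, between -1.16 and -1.07, also at CV 0.2.

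Dnajb9, also called ERdj4, is a co-chaperone of BiP that XBP1 induces. It lies on chromosome 12 from 45306884 to 45311055 (mm9, minus strand) and was at 35.8, 34.5 and 31.7 CPM in the WT libraries and 43.1, 39.5 and 40.2 CPM in those of SHP-KO. The log2 fold change was estimated at 0.27 ± 0.069 (SE), with adjusted p 0.00048. At CV 0.2 it did not pass (exact test, adjusted p 0.44).

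Xbp1, whose spliced mRNA encodes the transcription factor of the IRE1 pathway, spans 5420970 to 5425875 on chromosome 11 (mm9, plus strand). It was at 131.8, 136.7 and 135.0 CPM in the WT libraries and 144, 161 and 148.5 CPM in those of SHP-KO. The groups did not overlap, but replicate 2 of SHP-KO stood above the other two, and the log2 fold change was estimated at 0.17 ± 0.040 (SE), with adjusted p 8.5e-05. The call was lost at CV 0.2 (exact test, adjusted p 0.64).

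Pdia4, a disulfide isomerase of the BiP chaperone complex, lies on chromosome 6 from 47746140 to 47763511 (mm9, minus strand). Its libraries overlapped, at 47.7, 47.6 and 48.8 CPM in the WT libraries and 46.6, 49.8 and 46.4 CPM in those of SHP-KO. The log2 fold change was -0.01 with a 95% interval of -0.13 to 0.11 (adjusted p 0.86). A microRNA gene, Mir704, overlaps 14 of its 2481 exon bases.

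**Figure D2:**
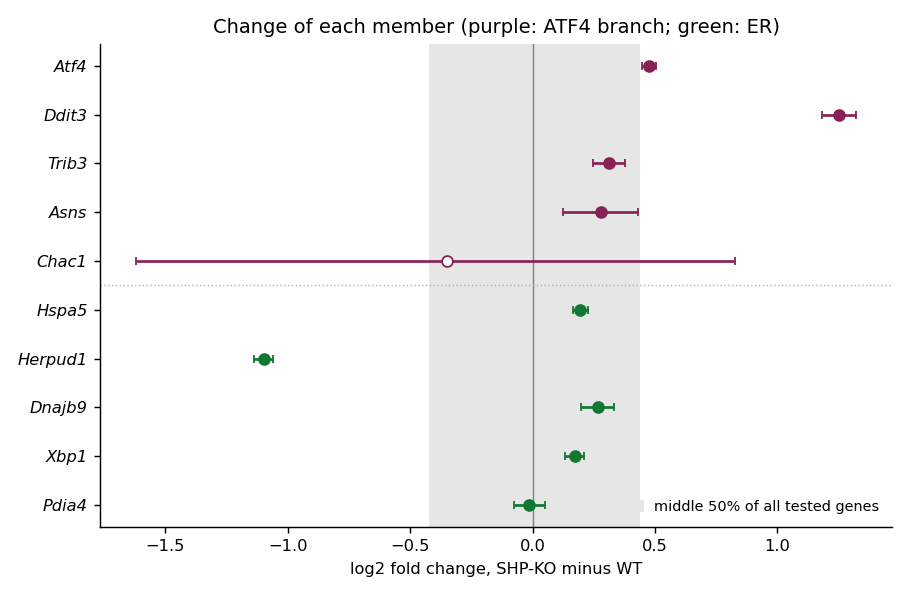
Log2 fold change, SHP-KO minus WT, of each member with its SE, and for the untested Chac1 (open symbol) the count ratio with its 95% counting interval. The grey band is the middle 50% of all tested genes, -0.42 to 0.44. Atf4 at 0.48, Ddit3 at 1.25 and Herpud1 at -1.10 lie outside it.

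The ATF4 branch was higher relative to the ER branch in SHP-KO, and this contrast came mostly from Ddit3 and Herpud1. For each library the mean log2 CPM of the 5 ER genes was subtracted from that of the 5 ATF4 genes, which removes any scaling between libraries. The result was -2.86, -2.80 and -2.71 in WT and -2.25, -2.48 and -2.13 in SHP-KO, so that all SHP-KO libraries were higher, by 0.50 on average. Without Chac1 the difference was 0.68. Without Ddit3 and Herpud1 it was 0.04, less than the SD between libraries of 0.15, and the groups overlapped. With all 3 of these genes left out it was 0.20, more than the SD between libraries of 0.033, and the groups did not overlap. This value rests on Atf4, Trib3 and Asns against Hspa5, Dnajb9, Xbp1 and Pdia4. These values describe chosen genes and carry no test.

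Ratios of counts within a library show the same pairs without any scaling. Ddit3 per Atf4 count was 0.064, 0.058 and 0.061 in WT and 0.109, 0.094 and 0.111 in SHP-KO, a mean ratio 1.72-fold higher in SHP-KO. Trib3 per Atf4 went the other way, from 0.100 ± 0.0073 to 0.089 ± 0.00095 (SD, n = 3), and Asns per Atf4 from 0.0153 ± 0.00057 to 0.0134 ± 0.0010. These ratios carry no test, and the 95% interval of the Asns change, -0.02 to 0.58, includes the Atf4 value of 0.48.

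Among the ER genes the ratio to Hspa5 was stable for some members and not for others. Xbp1 per Hspa5 was 0.36 ± 0.012 in WT and 0.36 ± 0.025 in SHP-KO, and Dnajb9 per Hspa5 was 0.092 ± 0.0057 and 0.097 ± 0.0029, both with overlapping groups. Pdia4 per Hspa5 went from 0.13 ± 0.0022 to 0.113 ± 0.0056. Herpud1 per Hspa5 went from 0.556, 0.591 and 0.567 to 0.228, 0.240 and 0.232, a ratio of 0.41 between the groups. Between the branches, Ddit3 per Herpud1 was 0.111 ± 0.0097 in WT and 0.571 ± 0.063 in SHP-KO, 5.13-fold higher.

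**Figure D3:**
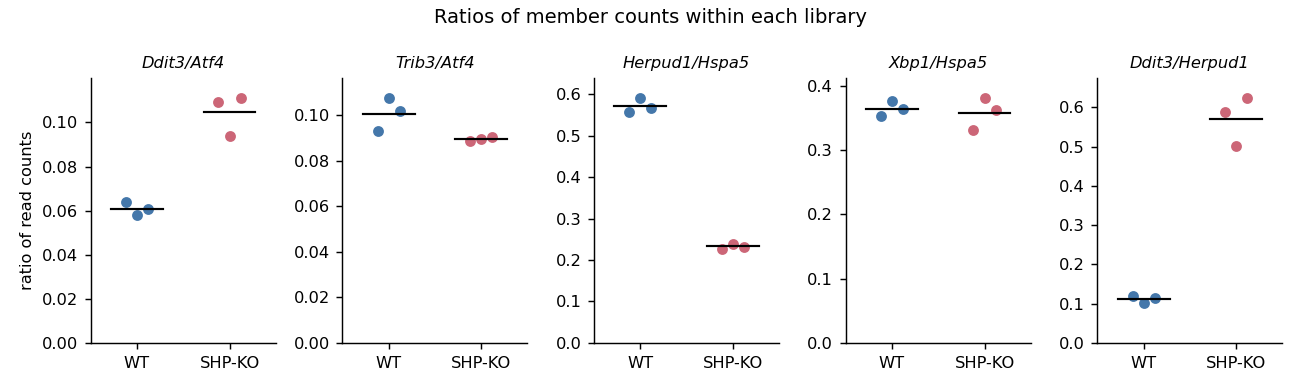
Ratios of read counts between members within each library (y axes from 0), with WT in blue, SHP-KO in red and group means as bars. The Ddit3 to Herpud1 ratio rose from 0.111 to 0.571 on average, while the Xbp1 to Hspa5 ratio was 0.36 in both groups.

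The order of the levels per exon length changed around the same 2 genes. In WT the order was Atf4 (223 RPKM), Hspa5 (141 RPKM), Herpud1 (113 RPKM), Xbp1 (74.7 RPKM) and Ddit3 (26.9 RPKM), with no overlap between neighbours. Pdia4, Trib3 and Dnajb9 followed at 19.4, 18.8 and 18.2 RPKM, and their libraries overlapped. Asns and Chac1 were last, at 3.06 and 0.32 RPKM. In SHP-KO Herpud1 (52.6 RPKM) stood below Xbp1 (84.0 RPKM) and Ddit3 (64.4 RPKM), again without overlap between neighbours. Trib3 (23.3 RPKM) and Dnajb9 (21.96 RPKM) overlapped, and Pdia4 came after them at 19.2 RPKM. Summed over each branch, the ATF4 genes were at 264 to 277 RPKM in WT and 398 to 405 RPKM in SHP-KO. The ER genes summed to 366 to 367 RPKM in WT and 330.3 to 346 RPKM in SHP-KO. Single genes carried these sums. Atf4 rose most, from a mean of 223 to 310 RPKM, followed by Ddit3, while Chac1 went from 0.32 to 0.25 RPKM. Herpud1 carried the fall of the ER sum, from 113 to 52.6 RPKM. Hspa5 (141 to 162 RPKM), Xbp1 and Dnajb9 went the other way, and Pdia4 changed little.

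In the authors' deposited table Ddit3 (log2 fold change 1.24, adjusted p 5.8e-06) and Herpud1 (log2 -1.12, adjusted p 3.3e-05) passed 0.05. The authors' deposited table gives Atf4 at log2 0.46 with an adjusted p of 0.12. In the authors' deposited table the other members it holds, Trib3, Asns, Hspa5, Dnajb9, Xbp1 and Pdia4, had adjusted p-values between 0.38 and 0.95. Over its 12939 genes, 34.6% passed in the authors' deposited table, 19% higher and 15.6% lower.

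Beyond the members, other genes of the ATF4 program were called in both directions, as were all tested genes, of which 35.2% rose and 35.4% fell. Of 15 tested regulators and effectors 6 rose and 7 fell, with a median log2 fold change of -0.05. Atf3, a stress-induced repressor of the ATF family, fell from 92.8 ± 3.76 to 27.7 ± 0.69 CPM (log2 -1.74), and Eif4ebp1, the translation inhibitor 4E-BP1, fell from 28.9 ± 1.18 to 10.5 ± 0.20 CPM. Sesn2, which restrains mTORC1 when leucine is short, was at 11.4 ± 0.29 CPM (WT) against 4.69 ± 1.09 CPM (SHP-KO) (log2 -1.26, adjusted p 3.0e-12). Tnfrsf10b, the death receptor that CHOP induces, rose from 9.59 ± 0.32 to 20.1 ± 1.32 CPM. Vegfa rose by log2 0.45, a call that CV 0.2 did not keep (exact test, adjusted p 0.14). At CV 0.2, 9 of these genes passed in place of 13.

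Of 9 tested enzymes of amino acid synthesis and folate metabolism, 4 fell, 1 rose and 4 were not called, against 70.6% of all tested genes called. Their median log2 change was -0.36. Psat1, of the serine pathway, was at 3.15 ± 0.24 CPM (WT) against 1.86 ± 0.097 CPM (SHP-KO) (log2 -0.74, adjusted p 0.0073), and this call was lost at CV 0.2 (exact test, adjusted p 0.079). Phgdh, the first enzyme of that pathway, was at 1.90 ± 0.20 and 1.52 ± 0.14 CPM and did not pass (log2 -0.33, adjusted p 0.33). Glul, glutamine synthetase, fell by 0.75 on the log2 scale and Mthfd1l, of mitochondrial folate metabolism, by 1.02. Got1, aspartate aminotransferase, rose by log2 0.37, but not at CV 0.2 (exact test, adjusted p 0.24). At CV 0.2, 2 enzymes of the list passed, Glul and Mthfd1l.

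Amino acid transporters that ATF4 can induce were split. Of 8 tested, 3 rose and 2 fell, beside 35.2% higher and 35.4% lower over all tested genes. The median log2 fold change of the 8 was -0.01. Slc3a2, the heavy chain shared by several heteromeric transporters, rose from 398 ± 3.85 to 682 ± 15.7 CPM (1.71-fold), and Slc38a2, the neutral amino acid transporter SNAT2, from 40.7 ± 0.88 to 84.8 ± 3.14 CPM (2.09-fold). Slc7a11 and Slc7a5, light chains that pair with Slc3a2, fell from low levels, and its other light chains were not on the list. Slc7a11, the cystine transporter, went from 47 counts to 5 over the 3 libraries (means of 1.22 CPM in WT and 0.20 in SHP-KO). Slc7a5, the leucine transporter LAT1, went from 78 to 17 (2.04 CPM in WT and 0.64 in SHP-KO). The log2 fold changes were -2.59 (SE 0.54, adjusted p 1.6e-05) and -1.61 (SE 0.38, adjusted p 0.00012). These 4 genes passed at CV 0.2 as well.

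Aminoacyl-tRNA synthetases load tRNAs with amino acids, and several cytosolic ones are ATF4 targets. Of 20 cytosolic enzymes 5 rose, 4 fell and 11 were not called, against 70.6% of all tested genes called. Their median log2 change was -0.05. Yars and Eprs rose by log2 0.43 and 0.30, while Vars and Mars fell by 1.06 and 0.63 on the log2 scale. At CV 0.2 only Vars passed among the cytosolic enzymes. The 17 mitochondrial synthetases gave 5 higher, 6 lower and 6 not passing, against the same 70.6%, and had a median of -0.07. Among them Tars2 and Cars2 rose by log2 0.58 and 0.66, and Iars2 was lower, at log2 -0.69. At CV 0.2, 6 mitochondrial enzymes passed, and Tars2 did not (exact test, adjusted p 0.065).

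Of 17 tested genes in a list of sensors, eIF2-alpha kinases and related genes, 8 rose, 6 fell and 3 were not called. Over all tested genes 35.2% were higher and 35.4% lower, and the median log2 change of the list was 0.22. Beside sensors and kinases the list holds phosphatase subunits (Ppp1r15a and Ppp1r15b), Mbtps1, Mbtps2, and Creb3, Creb3l1, Creb3l2 and Creb3l3. The Creb3 family genes were all among those that rose. Atf6, the sensor whose cut form drives chaperone genes, fell from 64.4 ± 1.59 to 34.6 ± 1.93 CPM (log2 -0.90, adjusted p 4.0e-23). Ern1, which encodes the widely expressed IRE1-alpha, was at 4.56 ± 0.54 and 2.83 ± 0.27 CPM (log2 -0.69, adjusted p 0.0024) and was not called at CV 0.2 (exact test, adjusted p 0.079). Ern2, the IRE1-beta of mucus-secreting epithelium, rose from 1.10, 1.32 and 1.28 CPM to 7.13, 6.34 and 5.84 CPM, 5.19-fold. Eif2ak3, which encodes PERK, did not pass (log2 -0.12, adjusted p 0.14), although it did so on the lower side when libraries were scaled by their totals alone or genes were not filtered.

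Eif2ak4, which encodes GCN2, was at 2.604 ± 0.15 CPM (WT) against 3.29 ± 1.24 CPM (SHP-KO) and did not pass, and its SHP-KO libraries were widely spread. Eif2ak1, the haem-regulated kinase HRI, fell by 0.23 on the log2 scale, but not at CV 0.2 (exact test, adjusted p 0.50). Ppp1r15a encodes GADD34, which reverses eIF2-alpha phosphorylation and is itself an ATF4 and CHOP target. It was at 13.2 ± 2.23 and 13.8 ± 1.55 CPM and did not pass (log2 0.05, adjusted p 0.70). Creb3l2 and Creb3l3, membrane-bound factors related to ATF6, rose by log2 1.84 and 0.60. At CV 0.2, 5 of the 17 genes passed.

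Of 27 tested ER chaperones and folding enzymes outside the member list, 14 rose, 7 fell and 6 were not called, a share called near the 70.6% of all tested genes, and the median log2 change was 0.23. P4hb, the abundant protein disulfide isomerase that also serves in the lipid transfer complex MTP, rose from 2255 ± 28.7 to 3818 ± 23.3 CPM (1.69-fold). Agr2, a disulfide isomerase that goblet cells need to make mucin, rose from 61.8 ± 4.59 to 200.5 ± 3.87 CPM (3.24-fold). Pdia3 and Dnajc3 had log2 changes of -0.37 and -0.50 and were called lower, but neither at CV 0.2 (exact test, adjusted p 0.23 and 0.092). Hsp90b1, which encodes GRP94, did not pass, at 571 ± 12.5 and 559.7 ± 8.90 CPM (adjusted p 0.32). Calr, calreticulin, fell by 0.15 on the log2 scale, a call lost at CV 0.2 (exact test, adjusted p 0.69). Sdf2l1, a strongly stress-induced partner of BiP, was at 27.4 ± 0.47 and 25.4 ± 2.87 CPM and did not pass (adjusted p 0.22). At CV 0.2, 5 of the 27 passed.

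Among 26 other tested genes of ER-associated degradation, the pathway of Herpud1, 11 rose, 7 fell and 8 were not called, a share called near the 70.6% of all tested genes, and the median log2 change was 0.09. Syvn1, which encodes the ligase HRD1 itself, rose from 83.4 ± 5.28 to 203.9 ± 4.31 CPM (log2 1.29, adjusted p 1.0e-46). Its adaptor Sel1l changed little, from 126.6 ± 3.20 to 139 ± 3.34 CPM (log2 0.14), and was not called at CV 0.2 (exact test, adjusted p 0.72). H47, the selenoprotein VIMP, rose by log2 0.57, a call lost at CV 0.2 (exact test, adjusted p 0.055). Erlec1, a lectin of the pathway, fell by 0.66 on the log2 scale. Derl3, a channel component abundant in plasma cells, had 1.13 ± 0.29 CPM (WT) against 1.22 ± 0.60 CPM (SHP-KO), which did not pass (adjusted p 0.73). At CV 0.2, 4 of the 26 passed. Herpud1 and Syvn1, whose proteins work in 1 complex, thus lay on opposite sides.

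The ER translocation list holds 23 genes, which bring new proteins into the ER and remove their signal peptides. It gave 9 higher, 2 lower and 12 not passing, against 70.6% of all tested genes called. The median log2 change of the list was 0.06. Sec61a1, the channel subunit, rose by log2 0.48 and Sec63, its partner that recruits BiP, by log2 0.41. Spcs3 and Ssr4 fell by 0.33 and 0.11 on the log2 scale. The fall of Ssr4 was lost without WT replicate 3 or without SHP-KO replicate 1, and none of the 23 genes passed at CV 0.2.

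**Figure D4:**
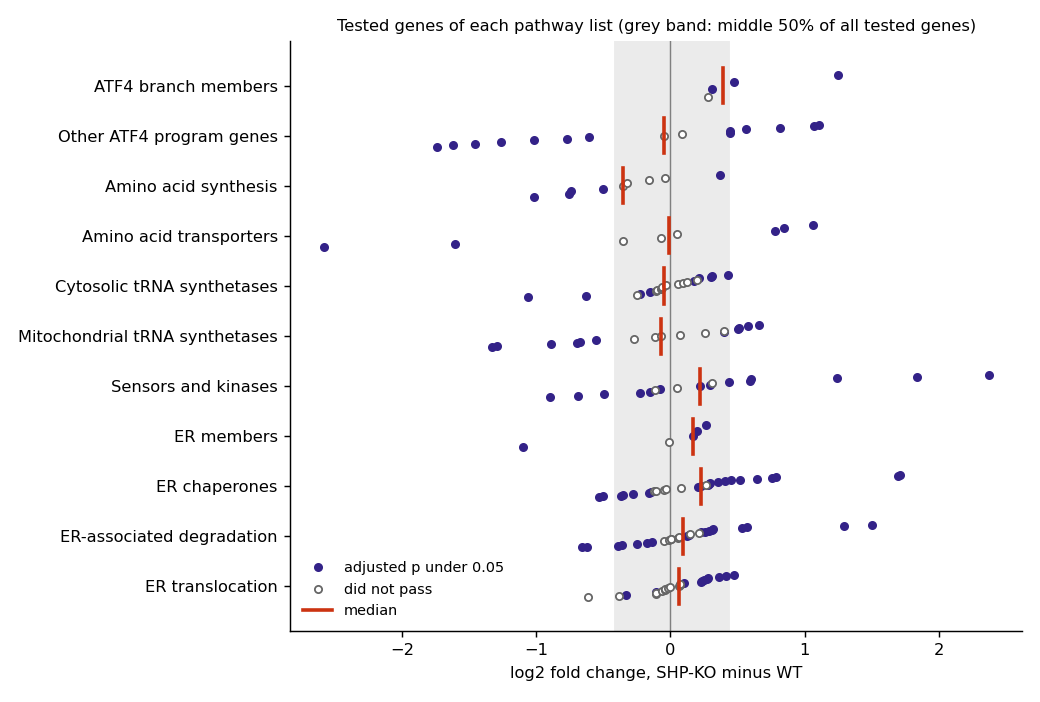
Log2 fold changes, SHP-KO minus WT, of the tested genes in each list, with filled points for an adjusted p under 0.05, open points for the rest and red bars for medians. The grey band is the middle 50% of all tested genes. List medians run from -0.36 for amino acid and folate enzymes (labelled amino acid synthesis) to 0.39 for the ATF4 branch members. Most lists hold genes on both sides of 0.

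Markers of the secretory cells that carry much ER moved in the same libraries, and in different directions. Of 9 tested goblet cell genes 6 rose and 1 (Ccl9) fell, and their summed level went from 2594 to 2672 CPM in WT to 7317 to 7446 CPM in SHP-KO. Agr2 and Ern2, goblet genes by function, rose beside them. Of 9 Paneth cell genes 6 fell and none rose, with a summed level of 290.5 to 312 CPM in WT and 192 to 215 CPM in SHP-KO. Of 6 tested plasma cell genes 4 fell and 1 (Igj) rose, with a sum of 323 to 332 CPM against 209 to 232 CPM. Sdc1, which epithelial cells also express, carried the fall of that sum, at 269 ± 4.05 CPM (WT) against 109.2 ± 3.26 CPM (SHP-KO). Without it the plasma cell sum was 56.9 to 58.6 CPM in WT and 103 to 121 CPM in SHP-KO, the opposite direction. That rise was carried by Igj, the only gene of the list called higher. Igj was at 34.5 ± 1.02 CPM (WT) against 100.1 ± 7.13 CPM (SHP-KO). No gene of these 3 lists was at 0 in either group. Pancreatic acinar genes, from another cell type rich in ER, summed to 10.7 to 14.2 CPM in WT and 21.6 to 22.9 CPM in SHP-KO, but nearly all of this was Klk1, the 1 gene of the list that was tested. Without Klk1 the acinar sum was 0.30 to 0.53 CPM in WT and 0 to 0.13 CPM in SHP-KO, with Cela2a, Cela3b, Amy2b, Prss2 and Try4 at 0 counts in both. The part of these cell types in the changes of the 10 members was not tested. Nor was that of the intestinal segment, whose markers moved as well. Of 11 proximal genes 10 rose and 1 fell, and of 12 ileum genes 8 fell and 4 rose. The proximal genes summed to 5173 to 5270 CPM in WT and 27277 to 27774 CPM in SHP-KO. The ileum genes summed to 19562 to 19922 CPM in WT and 4508 to 4593 CPM in SHP-KO. Beside all these marker counts, 35.2% of all tested genes rose and 35.4% fell.

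Genes with ERSE, the element of Hspa5, and genes with ERSE-II, that of Herpud1, were each called in both directions. At CV 0.2, 5 of 14 ERSE genes passed, all higher, and 2 of 6 ERSE-II genes, Herpud1 among them, all lower. These shares are near the 33.4% of all tested genes, and counts this small cannot show that the elements differ in direction. Of 14 tested genes with an exact ERSE, found by matching 8729 tested genes to the promoter table by symbol, 7 rose, 4 fell and 3 were not called, and the median log2 change was 0.17. Syvn1, Creld2 and Hspa5 were among those that rose, and Calr, Canx, Dnajc3 and Pdia6, all ER folding genes, were those that fell. At CV 0.2, 5 of the 14 passed, all higher (Pan2, Syvn1, Alg12, Creld2 and Spats2l), and the calls of Hspa5 and of the 4 genes that fell were lost. Of 6 tested genes with ERSE-II, Dnajb11, a BiP co-chaperone, and Rbm39 rose by log2 0.28 and 0.50. Herpud1 and Nucb1, a calcium-binding Golgi protein gene, were lower, at log2 -1.10 and -0.63, and 2 did not pass. At CV 0.2, Herpud1 and Nucb1 still passed, and Dnajb11 and Rbm39 did not (exact test, adjusted p 0.39 and 0.092). The 246 tested genes with a CARE gave 93 higher, 73 lower and 80 not passing, with a median of 0.07. The 91 with a UPRE gave 41 higher, 22 lower and 28 not passing, with a median of 0.10. Beside the counts of all 4 motifs, 35.2% of all tested genes were higher and 35.4% lower. At CV 0.2, 33.4% were called, 2164 genes higher and 1877 lower. Genes named here for their promoter match were picked after their values were seen.

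**Figure D5:**
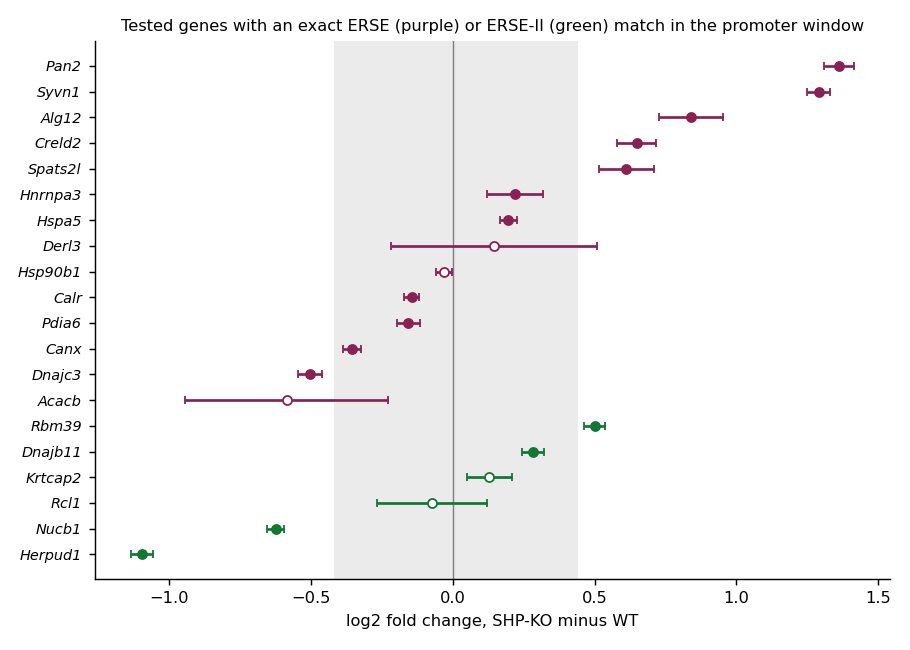
Log2 fold change, SHP-KO minus WT, with SE, of the 20 tested genes whose promoter window holds an exact ERSE (purple) or ERSE-II (green). Filled points have an adjusted p under 0.05 and the grey band is the middle 50% of all tested genes. Both sets hold genes called higher and genes called lower, and Herpud1 is the lowest at -1.10. At CV 0.2 only 5 of 14 ERSE genes (all higher) and 2 of 6 ERSE-II genes (all lower) passed, beside 33.4% of all tested genes.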

How the data were processed

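For each of 6 libraries the authors deposited raw counts, which featureCounts 1.5.2 made over the exons of each gene (mm9) without regard to strand, per the file headers. STAR 2.6.0c, Trimmomatic 0.38, bcl2fastq 2.17.1.14, FastQC 0.11.5 and edgeR are listed in the submitters' processing notes. Their comparison was deposited as log2 changes and mean levels, each with a p-value and an FDR. Counts were filtered with filterByExpr (minimum count 10), given TMM factors, and compared in R 4.3.3 by edgeR 4.0.16 (robust quasi-likelihood). The Benjamini-Hochberg adjustment covered all 12106 tested genes, at a threshold of 0.05. RPKM are TMM-scaled CPM per kilobase of exon. The fit was tested on data simulated with the spread estimated from these libraries. Such data cannot show whether the p-values hold if the libraries are not from separate animals. Promoter windows are RefSeq's (GRCm38.p6), matched by symbol, and mm9 coordinates are those of the count files. The 10 members and all lists were chosen with earlier results of these data known, so counts over them are descriptions. All members are named. From each pathway list the text names the 2 genes with the smallest p in each direction, and 17 genes chosen by name. Some genes that this rule names are not reported here. Alternatives were other scalings and filters, DESeq2 1.42.0, limma-voom (limma 3.58.1), a fit without robust estimation, the exact test at a CV of 0.2, the replicate number as a block and leaving out each library. Figures were drawn with matplotlib 3.10.9.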

Additional observations from a re-analysis of the deposited data

How the results depend on the processing

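The exact test with an assumed CV of 0.2 was the alternative that changed the counts. It called 4041 genes in place of 8543 over all tested, 1 in place of 3 rising ATF4 branch members, and 0 in place of 3 rising ER branch members. In the lists it called 5 genes of the sensor and kinase list in place of 14, and 2 amino acid and folate enzymes in place of 5. Of the tRNA synthetases it called 1 cytosolic in place of 9 and 6 mitochondrial in place of 11. It also called 5 chaperones in place of 21, 4 degradation genes in place of 18 and 0 translocation genes in place of 11. All other settings, including those without 1 library, left these counts within 1.5 times. Without 1 library Pdia4 lay between log2 -0.051 and 0.0053, the last without SHP-KO replicate 3 (adjusted p 0.95). The branch difference of 0.50 was 0.42 to 0.60 without 1 library, and in settings chosen after seeing the data 0.68 without Chac1, 0.036 without Ddit3 and Herpud1, and 0.20 without all 3. Without the count filter Chac1 had a log2 value of -0.40 (adjusted p 0.60, edgeR). With the replicate number as a block 8573 genes were called. Deviations of same-numbered libraries correlated at -0.0046 to 0.034, and those of differently numbered ones at -0.033 to 0.01. With 3 libraries per genotype, values this small cannot settle whether the numbers pair the libraries. With no scaling factors the median log2 fold change of all genes was -0.05. The marker sums without Sdc1 or Klk1 were also chosen after seeing the data.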
